A study of Homo sapiens with 5 samples.

Results

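The tripartite motif (TRIM) genes examined here comprise 8 ubiquitin ligase or adaptor genes of the antiviral response (TRIM5, TRIM14, TRIM21, TRIM22, TRIM25, TRIM26, TRIM38 and TRIM56) and, for comparison, TRIM28 and TRIM33, which belong to the same family but are not known as interferon genes. Their members are the H3K27ac peaks whose center lies within 10 kb of a GENCODE release 44 transcription start site of any of these 10 genes, which gave 12 distinct peaks of the 20087 in the table. The interferon-linked genes accounted for 8 of these peaks, and TRIM28 and TRIM33 for the other 4. H3K27ac marks active promoters and enhancers and was measured by ChIP-seq in HCT116 cells, a human colorectal carcinoma line, here in a derivative that carries CMV-osTIR1 and RAD21-mAC (an auxin receptor and a degron-tagged cohesin subunit). All cells were kept in 0.1% DMSO for 6 h, after which 2 libraries were made from cells given 1000 unit/ml IFN-β for 1 h and 2 from cells that received nothing further, with 1 input library. The labels place the control libraries at 0 min and the IFN-β libraries at 60 min, so interferon and time in culture cannot be told apart. The table gives, for each group, its mean normalized reads per peak on a log2 scale, and no value per library. The differences below therefore carry no SD between replicates, and none was tested.

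IFN-β acts through a receptor at the cell surface whose kinases activate the transcription factor complex ISGF3, of which IRF9 is a part and which binds the interferon-sensitive response element (ISRE) near the start sites of its target genes. Most TRIM proteins carry a RING domain that attaches ubiquitin, and many also carry a domain that recognizes a viral or cellular target. Some of them bind viruses directly, and others modify the sensors and adaptors that lead to interferon production, either raising or limiting the signal.

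The ISRE core, GAAANNGAAA on either strand, was present within 500 bp of the center in 3 of the 8 peaks of the interferon-linked genes and in 0 of the 4 peaks of TRIM28 and TRIM33. Over all 20087 peaks the core was present in 11.6%, and in 8.66% of the 11334 peaks centered within 1 kb of a protein-coding start site. The TRIM14 and TRIM5 sites lie 21 and 22 bp upstream of the start of the MANE Select transcript (the reference transcript of a gene), and the TRIM21 site, made of 2 overlapping cores, lies 25 bp downstream of it in the untranslated first exon. At TRIM26 the peak itself has no core, but the promoter held 2 overlapping cores, 186 bp upstream of the start and 240 bp outside the peak. These sites are shown to let their letters and positions be read beside the signal of each gene. Each is written 5′ to 3′ on the gene's strand, which is the minus strand in all 4 cases, from GRCh38, with the core in capitals. The windows are chr11:4393663-4393692 for TRIM21, chr9:98119229-98119258 for TRIM14, chr11:5685082-5685111 for TRIM5 and chr6:30213578-30213607 for TRIM26.
TRIM21: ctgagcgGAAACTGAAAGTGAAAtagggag
TRIM14: acggccgaggTTTCGGTTTCccttgggagc
TRIM5: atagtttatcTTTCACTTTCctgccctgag
TRIM26: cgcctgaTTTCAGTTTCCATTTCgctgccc
The core is read from the opposite strand of the gene at TRIM14, TRIM5 and TRIM26, and from the gene's own strand at TRIM21. The longer form GGAAANNGAAACT was found in 0 of the 12 peaks and in 0.309% of all peaks. The gamma-activated site TTCNNNGAA was found in 0 of the 12 and in 21.8% of all peaks.

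**Figure D1:**
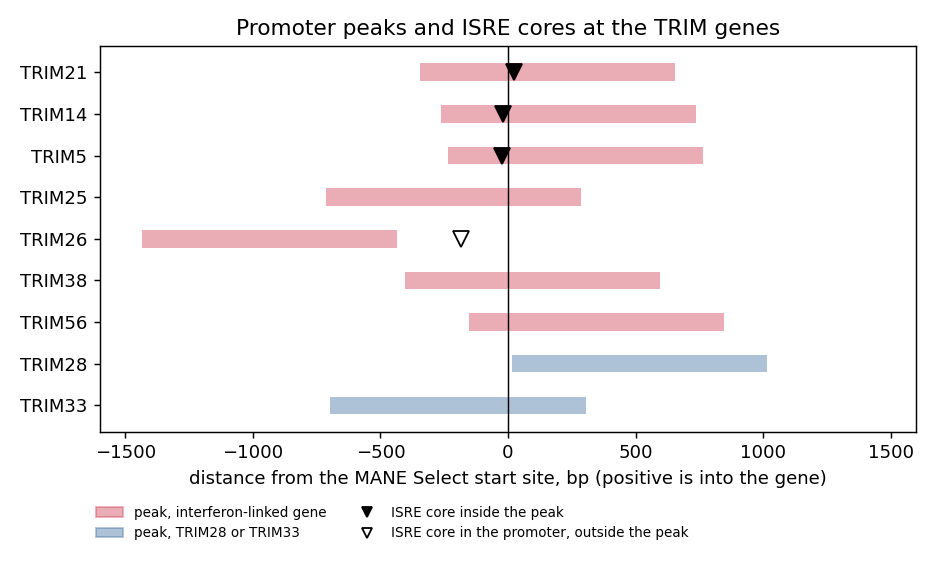
Position of the peak nearest a start site (bars) relative to the start of the MANE Select transcript (x axis, bp) for 9 of the TRIM genes, one per row. Triangles mark ISRE cores found in a peak or in a RefSeq promoter of 300 bases. Filled triangles at TRIM21, TRIM14 and TRIM5 lie within 25 bp of the start, and the open triangle at TRIM26 lies between its peak and its start. TRIM22, which has no peak of its own, is not drawn.

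RefSeq promoters (GRCh38.p14, from 250 bases before to 50 after the start) were matched for 8 of the 10 genes, all but TRIM22 and TRIM28. The core occurred in the promoters of TRIM5, TRIM14, TRIM21 and TRIM26, and in 3.57% of all 35116 promoters of this length. It was not found in those of TRIM25, TRIM38, TRIM56 and TRIM33. The bases upstream of the first annotated start are given for TRIM14 (chr9:98119223-98119472, minus strand) and TRIM26 (chr6:30213428-30213656, minus strand), whose promoters hold the core but whose signals differed, and for TRIM33 (chr1:114511204-114511453, minus strand) as a comparison gene, with cores in capitals.
TRIM14: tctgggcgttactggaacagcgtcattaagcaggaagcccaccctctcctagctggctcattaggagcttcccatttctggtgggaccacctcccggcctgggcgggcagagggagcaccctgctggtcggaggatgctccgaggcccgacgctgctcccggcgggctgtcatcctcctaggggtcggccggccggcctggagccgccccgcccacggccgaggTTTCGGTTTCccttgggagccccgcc
TRIM26: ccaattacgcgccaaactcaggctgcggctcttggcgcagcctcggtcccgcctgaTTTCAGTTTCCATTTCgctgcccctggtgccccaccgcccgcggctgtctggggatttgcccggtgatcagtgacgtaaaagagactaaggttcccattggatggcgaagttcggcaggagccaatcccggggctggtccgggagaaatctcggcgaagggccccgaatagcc
TRIM33: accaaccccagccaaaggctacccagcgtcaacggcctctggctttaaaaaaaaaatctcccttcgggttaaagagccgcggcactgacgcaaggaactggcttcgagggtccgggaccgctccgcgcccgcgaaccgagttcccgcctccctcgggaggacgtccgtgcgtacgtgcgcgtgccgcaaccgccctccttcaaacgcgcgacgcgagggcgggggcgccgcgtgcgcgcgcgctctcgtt
GC content over the 300 bases was 69.3% for TRIM14, 64.0% for TRIM26 and 67.7% for TRIM33. Over the 8 promoters it ran from 48.3% to 69.3% in the 4 with the core and from 44.7% to 72.3% in the 4 without it.

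In the whole table the log2 signal was lower with IFN-β than without, with a median difference (IFN-β minus control) of -0.69. The group means of all peaks added up to 540427 normalized reads with IFN-β and 876825 without. Differences are therefore given both as they stand and relative to this median, and a peak was counted as higher or lower when its difference lay at least 1 log2 unit above or below the median. By this count 2.51% of all peaks were higher and 1.44% were lower. As a check of the cell line, 5 of 6 epithelial genes (EPCAM, CDH1, KRT8, KRT18 and CDX2, but not VIL1) had a peak within 10 kb of a start site. PTPRC, CD3E, ALB and MYH6, markers of other cell types, had none, while the peak near GFAP lay closest to a start of EFTUD2.

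All 8 peaks of the interferon-linked TRIM genes had a difference above the median of the table, a side on which 49.1% of all peaks fell. Their median was 0.70 log2 units above the median of the table. Of the 12 TRIM peaks, 4 had a difference above 0, all 4 at interferon-linked genes, where 5.93% of all peaks did. Of the 9 with a mean log2 signal of at least 5, only that of TRIM14 (1 of 9) did, as the TRIM5, TRIM21 and TRIM38 intron peaks fall below this signal. At least 1 log2 unit above the median were 3 of the 12 (2.51% of all peaks), at TRIM21, at TRIM14 and in the TRIM38 gene, and 0 of the 12 lay as far below it (1.44% of all peaks). At 0.5 log2 units above the median there were 5 of the 8 interferon-linked peaks, against 11.1% of all peaks. The genes were chosen as interferon genes with earlier results of these data known, and the peaks are not replicates of the treatment.

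**Figure D2:**
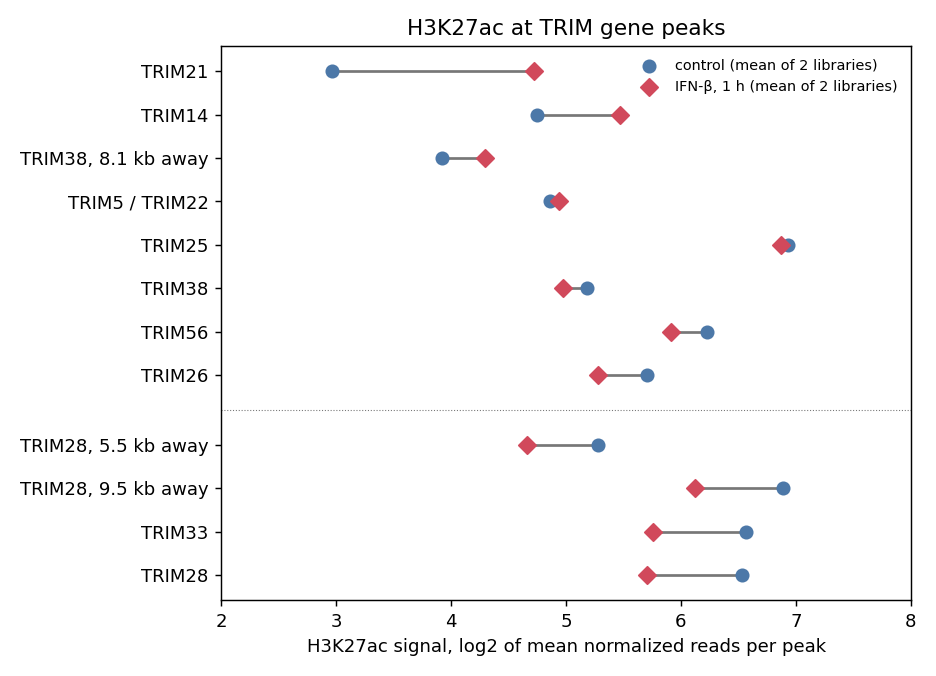
H3K27ac signal (x axis, log2 of mean normalized reads per peak) of the 12 TRIM peaks in control cells (circles) and after IFN-β (diamonds), each point the mean of 2 libraries. The interferon-linked genes stand above the dotted line, ordered by difference, and TRIM28 and TRIM33 below it. TRIM21 goes from 2.96 to 4.72, while all 4 peaks below the line have lower values with IFN-β.

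Among the genes whose products act on viral particles, TRIM21 had the widest difference. TRIM21 is a cytosolic antibody receptor that marks antibody-coated virus for degradation. Its peak (chromosome 11, 4393046 to 4394046) is centered 156 bp inside the gene, in intron 1, and had a log2 signal of 2.96 in control cells and 4.72 with IFN-β, or 7.8 and 26.4 mean normalized reads. The difference of 1.76 was 2.45 above the median of the table, ranked 17 of 20087 from the top, and was 3.39-fold as it stands. TRIM21 was also the weakest of the 12 peaks in control cells, where its signal lay at percentile 6.33 of the table, so its control value rests on few reads. With 10 reads added to both groups of every peak, its difference was 1.52 above the median in place of 2.45. In the tenth of peaks with the most similar mean signal, 5% to 95% of the differences ran from -1.37 to 0.09.

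TRIM5 encodes a restriction factor that binds retroviral capsids, and TRIM22, its neighbor on chromosome 11 in the opposite orientation, encodes a related antiviral ligase. Both genes are represented by the same peak (5684308 to 5685308). It is centered 266 bp from the MANE Select start of TRIM5, in its intron 1, and 4982 bp upstream of that of TRIM22. Its log2 signal was 4.86 in control cells and 4.94 with IFN-β (29.0 and 30.7 reads), a difference of 0.08. This is 0.77 above the median and above the 95th percentile of -0.08 for peaks of similar signal. TRIM22 thus had no peak of its own, and its value cannot be told apart from that of TRIM5.

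Among the genes that act on RNA sensing, TRIM14 showed the larger difference. TRIM14 lacks a RING domain and serves as an adaptor of the mitochondrial antiviral protein MAVS. The center of its peak (chromosome 9, 98118484 to 98119484) lies 238 bp inside the gene, in coding exon 1. The log2 signal was 4.75 in control cells and 5.47 with IFN-β (26.9 and 44.3 reads), a difference of 0.72 or 1.41 above the median. Its rank was 143 of 20087, and the 95th percentile for peaks of similar signal was -0.19. TRIM25, the ligase that modifies the RNA sensor RIG-I, had the strongest signal of the 12 peaks, with 6.93 in control cells and 6.87 with IFN-β (121.9 and 117.0 reads). The values of TRIM25 were nearly level as they stand, but the difference of -0.06 was 0.63 above the median. It exceeded the 95th percentile of -0.39 for peaks of similar signal, among which its percentile was 99.3. The TRIM25 peak (chromosome 17, 56913764 to 56914764) is centered 215 bp upstream of the MANE Select start, with the start of the gene ENSG00000274213 nearer still at 96 bp.

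Of the remaining genes, TRIM38 acts as a brake on TAB2 signaling and TRIM56 in the response to cytosolic DNA. TRIM26 is encoded in the MHC region. The TRIM26 peak (chromosome 6, 30213840 to 30214840) lies wholly upstream, centered 934 bp from the MANE Select start. Its log2 signal was 5.70 in control cells and 5.28 with IFN-β (52.0 and 38.9 reads). The difference of -0.42 was 0.27 above the median and within the 5% to 95% range of -1.13 to -0.23 for peaks of similar signal.
At TRIM38 the promoter peak (chromosome 6, 25962399 to 25963399) had 5.18 in control cells and 4.97 with IFN-β (36.3 and 31.3 reads), a difference of -0.21. The other TRIM38 peak (25970447 to 25971447), 8145 bp from the start in intron 4, had 3.92 and 4.29 (15.1 and 19.6 reads). Its difference of 0.37 was 1.06 above the median, where that of the TRIM38 promoter peak was 0.48 above it. With a GC content of 38.8% it was the most AT-rich of the 12 peaks, and it held no ISRE core.
TRIM56 had 6.23 in control cells and 5.91 with IFN-β (75.1 and 60.1 reads) in a peak 346 bp inside the gene, in intron 1 (chromosome 7, 101085327 to 101086327). The difference of -0.32 was 0.37 above the median and equal to the 95th percentile of -0.32 for peaks of similar signal. TRIM56, TRIM26 and the TRIM38 promoter thus stayed lower with IFN-β as they stand, by less than the typical peak.

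**Figure D3:**
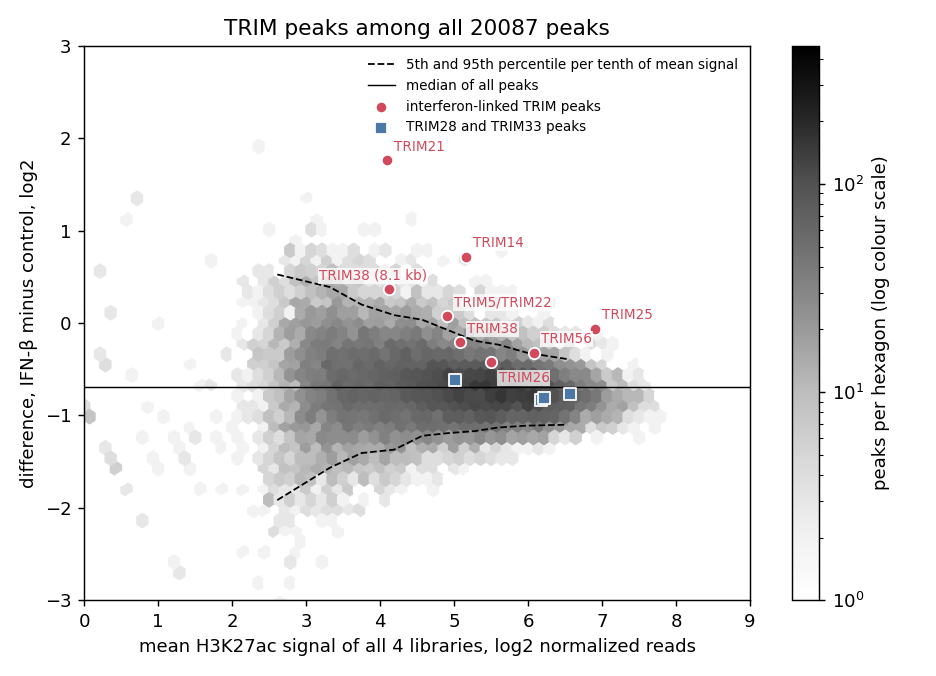
Difference in H3K27ac signal (y axis, IFN-β minus control, log2) against the mean signal of all 4 libraries (x axis, log2 normalized reads) for all peaks, shaded by number on a log scale. The 497 peaks beyond the axes are not drawn. Of the interferon-linked TRIM peaks (circles), 5 of 8 lie above the dashed 95th percentile for their signal, and the squares of TRIM28 and TRIM33 lie near the median of -0.69.

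TRIM28, the corepressor of KRAB zinc finger proteins, and TRIM33, a regulator of TGF-β signaling, had strong promoter peaks with differences close to the median of the table. The TRIM28 promoter peak (chromosome 19, 58544079 to 58545079, centered in exon 1) had a log2 signal of 6.53 in control cells and 5.70 with IFN-β (92.4 and 52.0 reads), a difference of -0.83. The TRIM33 promoter peak (chromosome 1, 114510899 to 114511899, centered 196 bp upstream) had 6.57 and 5.76 (95.0 and 54.2 reads), a difference of -0.81. Relative to the median these are -0.14 and -0.12, at percentiles 34.0 and 36.2 of the table. The median of the 8 interferon-linked genes, each represented by the peak nearest a start site, exceeded the mean of TRIM28 and TRIM33 by 0.83 log2 units. No test is attached to this value, since genes are not replicates and TRIM5 and TRIM22 share a peak. That peak enters the median under both genes. At a limit of 1 kb, where TRIM22 has no peak and 7 genes remain, the value was 0.76.
The TRIM28 region held 2 further peaks, with differences of -0.62 and -0.77, centered 27 bp from a start of CHMP2A and 24 bp from a start of MZF1-AS1 (147 bp from UBE2M). They belong to the neighborhood of TRIM28 by distance only. GC content ran from 38.8% to 65.0% in the interferon-linked peaks and from 61.4% to 75.2% in the comparison peaks. When each peak was set against the median of the tenth of peaks with the same GC content, the gap of 0.83 became 0.71.
At the edge of the 10 kb limit, the outermost member, near TRIM28 (9456 bp away), had the difference of -0.77 given above, while the nearest peaks left out, at 10512 bp from TRIM33 and 10991 bp from TRIM56, had -0.74 and -0.39.

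The 3 peaks with an ISRE core had differences of 1.76, 0.72 and 0.08, and the 5 interferon-linked peaks without it ran from -0.42 to 0.37. The value of 0.37 is that of the TRIM38 intron peak, 8145 bp from the start. The others without a core, each the nearest to a start of its gene, ran from -0.42 to -0.06, below all 3 with it. The lowest is TRIM26, whose promoter holds cores outside the peak. Whether the core bears on the signal was not tested. Across all peaks within 1 kb of a protein-coding start, the median difference was -0.68 in the 982 with the core and -0.76 in those without. Of these peaks, 4.18% with the core and 0.937% without it lay at least 1 log2 unit above the median of the table. TRIM21 and TRIM14 are among the peaks with the core that lay this far above it, and TRIM5 is not.

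The rest of the family gives a wider background. Of 63 other protein-coding TRIM genes, 35 had a peak within 10 kb, at 34 distinct peaks when each was represented by the peak nearest a start. Their median difference was -0.80 (-0.69 over all peaks). The TRIM73 peak lay at the lowest value of the table in control cells (-0.17) and with IFN-β (-0.59). Some of the peaks, such as those of TRIM50 and TRIM66, were nearest to a protein-coding start of another gene. Of the 34, 1 had a difference above 0 (5.93% of all peaks) and the same peak, at TRIM34, was the only 1 at least 1 log2 unit above the median (2.51%), with 0 as far below (1.44%). Represented in the same way, the interferon-linked genes had 7 distinct peaks with a median difference of -0.06.
A list of 16 signaling partners of the TRIM ligases (RIGI, IFIH1, MAVS, STING1, CGAS, TBK1, IKBKE, IKBKG, TAB2, MAP3K7, TRAF3, TRAF6, TICAM1, IRF3, IRF7 and ZC3HAV1) all had a peak, with a median difference of -0.67. Differences were above 0 for 4 of them (5.93% of all peaks), and at least 1 log2 unit above the median for 2 (2.51% of all peaks). RIGI, the sensor modified by TRIM25, went from 4.87 to 5.95, a difference of 1.08. IRF7, the factor that amplifies interferon production, went from 5.59 to 6.31, a difference of 0.72.
For scale, 8 of 10 reference interferon-stimulated genes (IFI6, IFIT1, IFIT2, IFIT3, IRF9, ISG15, MX1, OAS1, OAS2 and OAS3) had a peak, with a median difference of 0.57. Of the 8, 5 were at least 1 log2 unit above the median of the table (2.51% of all peaks). With their differences as they stand, they were IFI6 (1.94), IFIT1 (1.59), IRF9 (1.29), MX1 (0.78) and OAS3 (0.37). TRIM21, at 1.76, lay within the range of the 8 reference genes, from -0.53 to 1.94, near its upper end. The low end is ISG15, which had 4 peaks within 10 kb and is represented only by the peak nearest a start, which held no ISRE core.

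**Figure D4:**
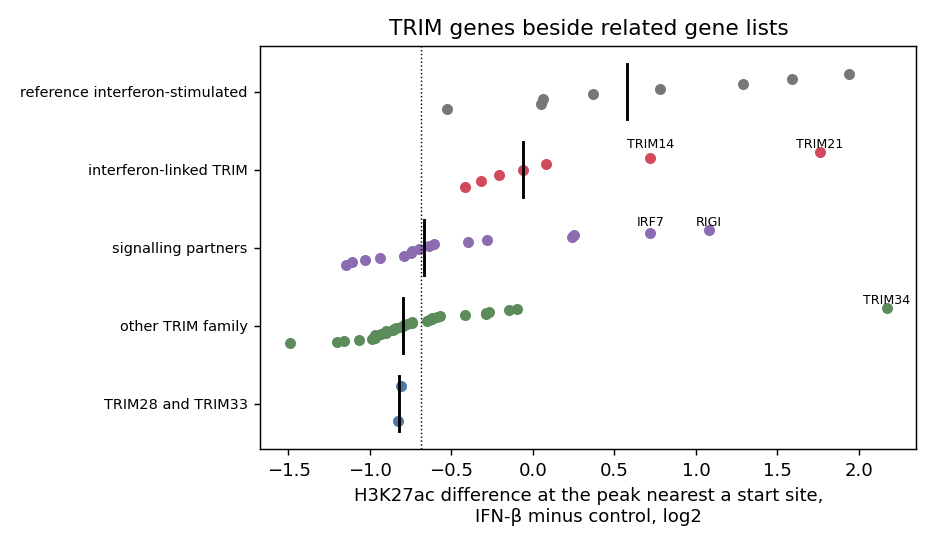
Difference in H3K27ac signal (x axis, IFN-β minus control, log2) at the peak nearest a start site for each gene of 5 lists (rows), with 1 point per distinct peak, vertical bars at the medians and a dotted line at the median of the table, -0.69. The interferon-linked TRIM genes (median -0.06) lie between the reference interferon-stimulated genes (0.57) and the other TRIM family genes (-0.80), and TRIM34 stands apart within its row.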

How the data were processed

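H3K27ac ChIP-seq had been carried out by the authors on 2 IFN-β and 2 control libraries, with 1 input library. Per the methods and the submitters' processing notes, reads were trimmed with fastp 0.19.3, aligned to GRCh38 with bowtie2, called as peaks with MACS2 in each library against the input, and merged and counted with DiffBind. The deposited values are, per peak, the log2 of mean normalized reads over all H3K27ac libraries and over each group, normalized for library size by the authors. The depth of each library and its spread are not in these columns, so no test, interval or SD was computed. The table's 3 columns of the authors' own comparison (log2 fold-change, p-value and FDR) were not used.

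The difference of the group columns was computed for every peak, with its median over the table. All 39 sequence names matched the GRCh38 reference, and start sites came from GENCODE release 44. Motifs were searched on both strands within 500 bp of each center. A gene with several peaks was represented by the peak nearest a start site. Values are given for the 10 members, list genes at least 1 log2 unit from the median and genes with a start nearer to a member peak. The marker and list genes are otherwise named without values. Exceptions are ISG15, IFIT2, IFIT3 and TRIM73, and 4 other TRIM genes given in the closing section for their cores. The members and lists were chosen with earlier results of these data known, and some list genes are not reported here. Peak assignment, motif search and counting were tested on simulated data. The counting was scored there only on peaks with more control reads than TRIM21, TRIM34 and the TRIM38 intron peak have. Python 3.11.15, numpy 2.4.6, pandas 2.3.3 and matplotlib 3.10.9 were used. Alternatives changed the offset, pseudocount, distance, start sites, gene value, size and peaks counted.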

Additional observations from a re-analysis of the deposited data

How the results depend on the processing

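The median of the interferon-linked peaks relative to the table, 0.70 as reported, was 0.67, 0.75 and 0.76 when the offset was the median of the tenth with the same GC content, of the tenth with the same mean signal, and of peaks near coding starts. It was 0.68 and 0.49 with 1 and 10 reads added to both groups, 0.63 at 1 kb and at 5 kb, 0.48 at 20 kb and 0.01 with no offset. The median of these genes minus the mean of TRIM28 and TRIM33, 0.83 as reported, was 0.71 and 0.80 with the GC and signal offsets, 0.82 and 0.72 with 1 and 10 reads added, 0.80 with the strongest peak of each gene, 0.82 with reads summed over its peaks and 0.76 at 1 kb. The count of genes at least 1 log2 unit above the offset, 2 of 8 as reported (2.51% of all peaks), was 1 with no offset, 5 at a size of 0.5 and 1 at 1.5. The 5 at a size of 0.5 (11.1% of all peaks) include TRIM5 and TRIM22, which share a peak. The share of all peaks is not given for no offset or for 1.5. Peaks with a difference above 0 numbered 4 of 12 (5.93% of all peaks), but 1 of the 9 with a mean log2 signal of at least 5 (TRIM14). The share of all peaks at that signal is not given. TRIM14 and TRIM21 were at least 1 log2 unit above the offset in all 12 alternatives that kept an offset, between 1.05 and 1.48 and between 1.52 and 2.51. Each has only 1 peak, close to its start. The alternatives of distance, start sites and gene value therefore could not change their values, and only those of offset and pseudocount could. Of the other interferon-linked genes none reached 1 in any alternative that kept an offset, and TRIM28 and TRIM33 were below the offset in all of them. No paired analysis was possible because the table holds no value per library, and leaving out each replicate was not run for the same reason. Low read numbers limit TRIM21 most, and the spread between libraries is not known for any peak.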

Other observations

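The widest difference in the TRIM family was at TRIM34, a relative of TRIM5 in the same cluster on chromosome 11. Its peak (chromosome 11, 5624324 to 5625324, centered 177 bp from a start) had a log2 signal of 1.29 in control cells and 3.46 with IFN-β, or 2.4 and 11.0 mean normalized reads, a difference of 2.17. These read numbers are lower than those of any of the 12 peaks described above. The nearest protein-coding start to the center of this peak is annotated to the gene ENSG00000239920. It held 1 ISRE core, 86 bp upstream of the MANE Select start (chr11:5624901-5624930, plus strand, core in capitals).
TRIM34: gccccaaaaaTTTCACTTTCatttctcagg
The core of TRIM34 reads the same 10 letters as that of TRIM5. The core was present in 5 of the 34 peaks of the other TRIM genes, where 11.6% of all peaks held it. Besides TRIM34, these were the peaks of TRIM23, with 2 cores and a difference of -0.93, of TRIM6, with 2 cores and -0.29, of TRIM44, with 1 core and -0.29, and of TRIM69, with 1 core and -0.15. The TRIM23 peak is centered 495 bp from a start of TRIM23, but its nearest protein-coding start is that of TRAPPC13. TRIM23, TRIM6, TRIM44 and TRIM69 were singled out for their cores after their values were seen.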
